A study of Mus musculus with 15 samples.

Results

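The transcripts described here are those of 10 killer lectin-like receptor genes in mouse blood: Klra4, Klra7, Klra8, Klra9, Klrb1c, Klrc2, Klrd1, Klre1, Klrk1 and Klrg1. They were taken by gene symbol from a deposited table of 55536 genes, all 10 symbols were found once, and all 10 had enough counts to enter the test over 13364 genes. Total RNA of blood was sequenced from male C57Bl/6 mice aged 10 months, in 15 libraries that are each taken as 1 animal, and the labels name no transgene or mutation. In the TBT group (n = 8) the mothers drank water with tributyltin, an organotin compound, until weaning, at 3.07 µM or a daily 0.5 mg per kg of body weight. The vehicle group (n = 7) is labelled as vehicle, whose composition the labels do not name, and vehicle 3 is labelled as having a liver tumor. The labels do not say which animals were littermates. Exposure was of the mother, so animals of 1 litter would not be independent, and the p-values measure the spread between these animals only.

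Killer lectin-like receptors are membrane proteins with an outer domain shaped like a C-type lectin. Natural killer (NK) cells carry them, and some T cells carry a part of the set. Receptors with an inhibitory motif in the cytoplasmic tail hold a cell back when they meet major histocompatibility complex (MHC) class I proteins on healthy cells, and activating receptors signal through adaptor proteins such as DAP12 (gene Tyrobp) and DAP10 (gene Hcst). Most of the genes sit together on mouse chromosome 6 in the NK gene complex, where neighbouring copies resemble each other closely.

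In the mouse build GRCm38, with the gene models of GENCODE release M21, 9 of the genes lay within 1.45 Mb of chromosome 6, and Klrg1 lay apart at 122270596 to 122282882. Klrb1c was at 128778485 to 128789215, Klre1 at 129577905 to 129585827, Klrd1 at 129591782 to 129598775, Klrk1 at 129610323 to 129623864 and Klrc2 at 129647496 to 129660689. The Klra genes followed at 130043731 to 130067271 (Klra4), 130115226 to 130129898 (Klra8), 130178675 to 130193112 (Klra9) and 130218605 to 130233322 (Klra7). Klre1 and Klrd1 are on the plus strand and the other 8 on the minus strand. The only annotated gene that shared exon bases with any of the 10 was Gm44511, on the strand of Klrb1c, over 13.9% of the Klrb1c exon bases, and it had 0 counts in all libraries.

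The libraries held 6.03 M to 11.99 M gene counts, and the 10 receptor genes together took 218 to 1357 counts per library. TBT 2, TBT 8, vehicle 6 and vehicle 7 held 218, 278, 295 and 296 of these counts, and each other library held at least 530. TBT 2, TBT 8 and vehicle 6 also had the lowest TMM factors (0.404, 0.528 and 0.736), the scaling by which counts are made comparable between libraries. Levels are given as CPM, the usual depth-scaled read count, on TMM-scaled library sizes. The fold change of each receptor gene is also given without TBT 2, TBT 8 and vehicle 6, which had both low counts and low factors, and as the range over leaving out each library in turn. Markers of NK cells, T cells, B cells, monocytes, neutrophils, red cells and platelets were all read in both groups.

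None of the 10 receptor transcripts differed between the groups beyond the spread between animals. Of the 10, 7 had a positive log2 fold change in TBT over vehicle and 3 a negative one, where 59.4% of all tested genes were positive. In edgeR's quasi-likelihood test 0 of 10 passed an adjusted p of 0.05, where 0% of the tested genes did, and 0 of 10 had an unadjusted p under 0.05, against 6.33% of the tested genes. The lowest adjusted p of any receptor gene was 0.872 (Klrk1). DESeq2 and limma-voom with sample quality weights also called 0 of 10, where they called 0.0644% and 0.142% of the genes they tested. At an unadjusted p under 0.05, 2 of the 10 appeared in edgeR with no filter, in limma-voom and in edgeR with a replicate block, where 11.3%, 20.3% and 8.35% of all tested genes did. In edgeR, 1 of the 10 appeared without TBT 8 and 1 without TBT 2, TBT 8 and vehicle 6, where 8.4% and 17% of all tested genes did. The ranges of the groups overlapped in all 10 genes, and they were apart in 0.112% of tested genes. The 95% intervals of the 10 fold changes ran from 0.609 (lower bound, Klra8) to 1.75 (upper bound, Klrd1), so a change of 2-fold in either direction lay outside the interval of each gene. In bulk blood, fewer cells of a type and less RNA per cell cannot be told apart, and this holds for every level below.

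**Figure D1:**
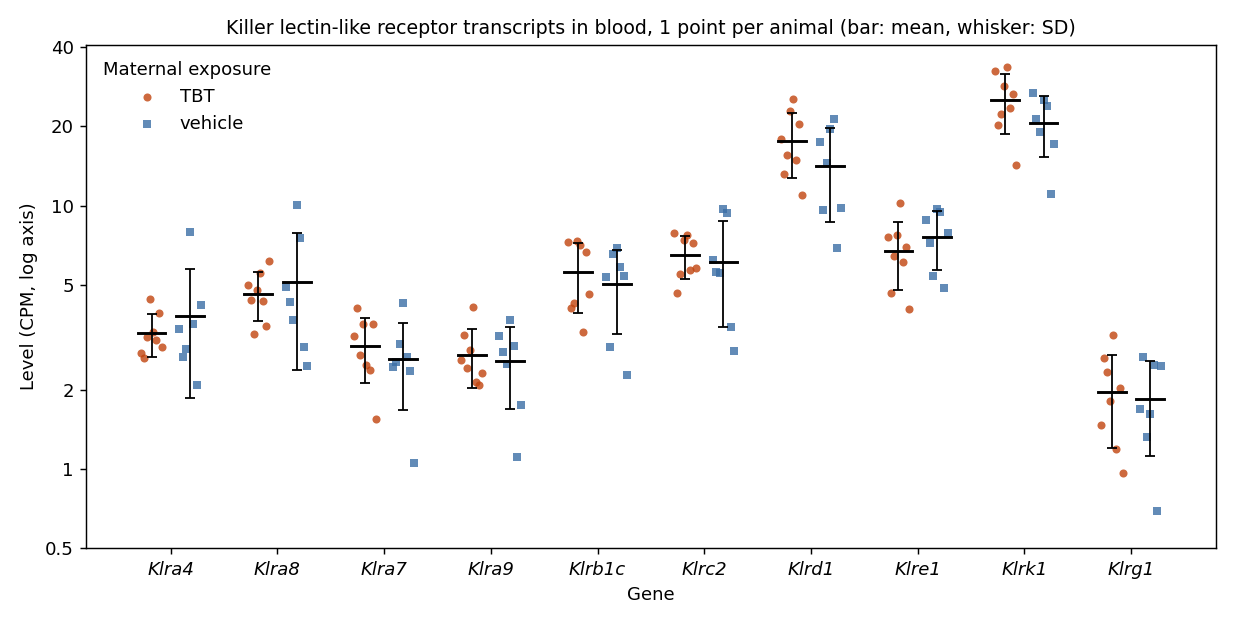
Level of each receptor transcript in CPM (depth-scaled read counts, log axis) in the 8 TBT libraries (circles) and the 7 vehicle libraries (squares), with the group mean (bar) and SD (whisker). The groups overlap in every gene, Klrk1 and Klrd1 have the highest CPM, and vehicle 4 stands highest in Klra4 (7.96 CPM) and Klra8 (10.04 CPM).

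The Klra genes encode the Ly49 receptors, which bind MHC class I. Klra4 (Ly49D) and Klra8 (Ly49H, which recognises a protein of mouse cytomegalovirus on infected cells) are activating and depend on DAP12. Klra7 (Ly49G) and Klra9 (Ly49I) are inhibitory. The stretches of 150 bases before the start sites of these 4 genes are shown so that these neighbouring receptor genes can be compared. They are from RefSeq on GRCm38.p6, minus strand, written 5′ to 3′, at chr6:130067272-130067421 for Klra4, chr6:130129899-130130048 for Klra8, chr6:130193113-130193262 for Klra9 and chr6:130233323-130233472 for Klra7. Capitals mark the only run of at least 10 bases that all 4 stretches held.
Klra4: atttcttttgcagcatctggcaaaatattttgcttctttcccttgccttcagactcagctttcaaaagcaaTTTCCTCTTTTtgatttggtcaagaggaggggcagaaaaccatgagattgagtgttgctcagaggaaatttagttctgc
Klra8: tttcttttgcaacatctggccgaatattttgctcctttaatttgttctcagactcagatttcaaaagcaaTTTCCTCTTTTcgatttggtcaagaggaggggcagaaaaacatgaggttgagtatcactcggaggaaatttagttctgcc
Klra9: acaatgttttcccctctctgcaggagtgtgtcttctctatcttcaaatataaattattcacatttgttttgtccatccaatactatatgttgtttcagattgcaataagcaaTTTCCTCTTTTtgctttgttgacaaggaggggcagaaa
Klra7: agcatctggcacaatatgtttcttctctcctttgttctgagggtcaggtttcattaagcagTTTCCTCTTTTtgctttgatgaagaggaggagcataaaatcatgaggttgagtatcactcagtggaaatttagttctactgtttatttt

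Over these 150 bases Klra4 and Klra8 were 86.8% identical in a global alignment, and Klra7 was 70.6% identical to Klra4 and 71.2% to Klra8. Klra9 was 40.1% to 46.6% identical to the other Klra stretches, near the 43.3% to 52.0% of the 22 pairs that held a receptor gene outside the Klra group. Its shared run began 38 bases before the annotated start, against 79, 80 and 89 bases for Klra4, Klra8 and Klra7, so the annotated starts do not line up. The run, TTTCCTCTTTT, was present on either strand in 0.0944% of 32851 stretches of the same length. It was in 8 of the 11 Klra genes in the table: Klra2, Klra3, Klra4, Klra6, Klra7, Klra8, Klra9 and Klra17. Klra4, Klra7, Klra8 and Klra9 held it by definition, because the run was chosen as shared by these genes. Both the count and the percentage include them, so of the 8 Klra genes only Klra2, Klra3, Klra6 and Klra17 were found by the search. In all, 28 of 27025 gene symbols held the run, most of them outside the Klra group, such as Clec4e, Fcrla, Vegfa and Xiap. RefSeq stretches were found for 8 of the 10 receptor genes, not for Klrd1 and Klrg1. The letters TGTGGT, the core bound by RUNX factors, were present on either strand in 3 of these 8 (Klrb1c, Klrc2 and Klrk1) and in 8.40% of all stretches. Of the other motifs searched, also on both strands, the T-box letters GGTGTGA were in 0 of 8 and in 1.92% of all stretches. The ETS letters CGGAAGT were in 0 of 8 (4.04%) and the TATA box letters TATAAA in 1 of 8 (Klra9, 7.57%). Each was searched only as these exact letters, so 0 of 8 does not mean that no site of that family was present. The shorter letters GGAA, the inner part of the ETS letters, were not searched, and the shared run holds them on the other strand.

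Among the activating Klra genes, Klra4 was at 2.63 CPM (lowest, TBT 2), 3.13 (median) and 4.43 CPM (highest, TBT 4) in TBT. In vehicle it was at 2.08 CPM (lowest, vehicle 6), 3.39 (median) and 7.96 CPM (highest, vehicle 4). The TBT libraries lay close together inside the vehicle range, and only vehicle 4 stood clear above. TBT averaged 3.28 ± 0.612 CPM (SD, n = 8) and vehicle 3.81 ± 1.95 CPM (SD, n = 7). The log2 fold change was -0.19 (95% interval -0.70 to 0.31, edgeR adjusted p = 0.964). Leaving out each library in turn gave -0.29 (vehicle 6) to 0.09 (vehicle 4), and -0.24 remained without TBT 2, TBT 8 and vehicle 6. The 69 counts of Klra4 in vehicle 4 carry a 95% counting interval of 6.19 to 10.1 CPM, above the 4.20 CPM of the next vehicle library.

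Klra8 ran from 3.26 (TBT 3) over a median of 4.57 to 6.17 CPM (TBT 8) in TBT, and from 2.45 (vehicle 7) over 4.30 to 10.04 CPM (vehicle 4) in vehicle. As with Klra4, vehicle held both the lowest and the highest library. The log2 fold change was -0.17 (95% interval -0.71 to 0.37, edgeR adjusted p = 0.976), and it was 0.07 without vehicle 4 and -0.34 without TBT 2, TBT 8 and vehicle 6. With 1 library left out the value was lowest without vehicle 7 (-0.28).

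Of the inhibitory Klra genes, Klra7 ran from 1.54 (TBT 8) over 2.96 to 4.09 CPM (TBT 2) in TBT and from 1.05 (vehicle 7) over 2.56 to 4.27 CPM (vehicle 4) in vehicle. The lowest value rests on 6 counts, with a 95% counting interval of 0.386 to 2.29 CPM. The log2 fold change was 0.14 (95% interval -0.36 to 0.64, edgeR adjusted p = 0.979). It shrank to 0.02 without vehicle 7, grew to 0.29 without vehicle 4, and was 0.13 without TBT 2, TBT 8 and vehicle 6. Klra9 ran from 2.09 (TBT 7) over 2.50 to 4.12 CPM (TBT 5) in TBT and from 1.11 (vehicle 6) over 2.79 to 3.69 CPM (vehicle 4) in vehicle. Its log2 fold change was 0.05 (95% interval -0.44 to 0.54, edgeR adjusted p = 0.994), and it was negative without TBT 5 (-0.09), vehicle 6 (-0.07) or vehicle 7 (-0.01). It was highest without vehicle 4 (0.15), and -0.08 without TBT 2, TBT 8 and vehicle 6.

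The balance of activating to inhibitory Klra transcripts was read within each library, so that scaling has no part in it. Counts of Klra4 and Klra8 together stood at 1.46 ± 0.409 times those of Klra7 and Klra9 in TBT (SD, n = 8) and at 1.72 ± 0.481 times in vehicle (SD, n = 7). The ratio was lowest in TBT 2 (0.960) and highest in vehicle 7 (2.38) and TBT 8 (2.35), all of them libraries with few receptor counts. Among all 15 libraries, TBT 2 was the only one in which the inhibitory pair had more counts than the activating pair. With 25 against 24 counts, the pairs were level there within counting error. Klra8 counts were 1.46 ± 0.437 times those of Klra4 in TBT and 1.39 ± 0.460 times in vehicle. Each of these differences between the groups was smaller than the SD within either group.

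Klrb1c encodes the NK1.1 antigen, an activating receptor used to mark NK cells in C57Bl/6 mice. It ran from 3.32 (TBT 6) over 5.64 to 7.31 CPM (TBT 4) in TBT and from 2.28 (vehicle 7) over 5.40 to 6.92 CPM (vehicle 4) in vehicle. Vehicle 2 and vehicle 7 lay below every TBT library. The means were 5.58 ± 1.66 and 5.04 ± 1.77 CPM, and the log2 fold change was 0.15 (95% interval -0.35 to 0.65, edgeR adjusted p = 0.977). Dropping 1 library moved it between 0.04 (vehicle 7) and 0.24 (vehicle 4), and it was 0.23 without TBT 2, TBT 8 and vehicle 6.

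Klrd1 encodes CD94, the partner chain that forms receptors with the NKG2 proteins, and Klrc2 encodes the activating NKG2C. With CD94 these recognise Qa-1, the product of H2-T23, which presents peptides cut from other MHC class I proteins. Klrd1 ran from 10.99 (TBT 8) over 16.8 to 25.3 CPM (TBT 5) in TBT and from 6.93 (vehicle 6) over 14.5 to 21.3 CPM (vehicle 5) in vehicle. With 6 of 8 TBT libraries above the vehicle median, its log2 fold change of 0.32 (95% interval -0.16 to 0.81, edgeR adjusted p = 0.894) was the largest positive one of the 10. Its sign held in all 24 alternative analyses (0.21 to 0.50, lowest adjusted p 0.184), and it was 0.33 without TBT 2, TBT 8 and vehicle 6. Single libraries moved it between 0.21 (without vehicle 6, or without TBT 5) and 0.44 (without vehicle 5).

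Klrc2 ran from 4.67 (TBT 2) over 6.502 to 7.87 CPM (TBT 1) in TBT and from 2.80 (vehicle 7) over 5.58 to 9.69 CPM (vehicle 4) in vehicle, again with the wider range in vehicle. Its log2 fold change was 0.09 (95% interval -0.38 to 0.56, edgeR adjusted p = 0.988), with -0.01 when vehicle 6 and -0.02 when vehicle 7 was left out, 0.23 without vehicle 4, and 0.05 without TBT 2, TBT 8 and vehicle 6. Klrc1, which encodes the inhibitory NKG2A, stood at 6.07 ± 2.45 CPM in TBT and 5.88 ± 1.74 CPM in vehicle. The count of Klrc2 over that of Klrc1, activating over inhibitory chain, was 1.18 ± 0.395 in TBT and 1.07 ± 0.364 in vehicle. These counts are not scaled for length, and 5812 exon bases are annotated for Klrc2 against 1984 for Klrc1. Of the 50-base stretches of Klrc2, 30.1% also occurred in another gene, Klrc1 foremost. The ratio is therefore read between the groups only and does not say which chain had more transcripts. Counts of Klrd1 over the summed counts of Klrc1 and Klrc2 ran from 1.27 to 1.54 in TBT (mean 1.40 ± 0.113, n = 8) and from 0.761 to 1.48 in vehicle (mean 1.18 ± 0.217, n = 7). Vehicle 2 gave the 0.761, the other 6 vehicle libraries stood at 1.12 or above, and the ranges of the groups overlapped.

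Klre1 encodes a receptor that pairs with the products of Klri1 and Klri2. It ran from 4.05 (TBT 8) over 6.70 to 10.2 CPM (TBT 5) in TBT and from 4.85 (vehicle 6) over 7.88 to 9.69 CPM (vehicle 4) in vehicle. Only 1 of 8 TBT libraries, TBT 5, exceeded the vehicle median. The log2 fold change was -0.16 (95% interval -0.56 to 0.25, edgeR adjusted p = 0.964), the opposite sign to its neighbours Klrd1 and Klrk1. It lay between -0.28 (without TBT 5) and -0.09 (without vehicle 4) with single libraries left out, was -0.11 without TBT 2, TBT 8 and vehicle 6, and was -0.0031 in limma-voom. On CPM of all counts without TMM factors the order of the means turned, with 7.84 ± 4.03 in TBT and 7.66 ± 2.19 in vehicle. As a share of the counts of the 10 genes, Klre1 took 8.62% ± 0.896 in TBT and 11.2% ± 2.11 in vehicle, while Klrd1 took 22.7% ± 2.01 and 19.9% ± 3.00.

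Klrk1 encodes NKG2D, an activating receptor of NK cells and CD8 T cells that signals through DAP10 and binds stress-induced ligands such as those of the Raet1, H60 and Ulbp1 genes. It ran from 14.3 (TBT 8) over 24.97 to 33.6 CPM (TBT 5) in TBT and from 11.1 (vehicle 6) over 21.3 to 26.7 CPM (vehicle 1) in vehicle. TBT 1, TBT 4 and TBT 5 lay above every vehicle library, and vehicle 6 lay below every TBT library. The means were 25.2 ± 6.45 and 20.6 ± 5.38 CPM, with a log2 fold change of 0.29 (95% interval -0.10 to 0.68, edgeR adjusted p = 0.872). It was positive in all 24 alternatives (0.19 to 0.41, lowest adjusted p 0.172) and 0.31 without TBT 2, TBT 8 and vehicle 6. Of the single libraries, vehicle 6 moved it most, to 0.19, and without vehicle 1 it was 0.36.

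Klrg1, an inhibitory receptor of mature NK cells and effector CD8 T cells that binds E-cadherin, was the transcript with the fewest counts, 5 to 39 per library. It ran from 0.964 (TBT 8) over 1.92 to 3.22 CPM (TBT 5) in TBT and from 0.693 (vehicle 6) over 1.69 to 2.67 CPM (vehicle 2) in vehicle. The log2 fold change was 0.09 (95% interval -0.53 to 0.70, edgeR adjusted p = 0.991), and leaving out TBT 5 gave -0.08, vehicle 6 gave -0.05 and vehicle 3 gave -0.01. It was highest without vehicle 2 (0.20), and -0.01 without TBT 2, TBT 8 and vehicle 6.

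**Figure D2:**
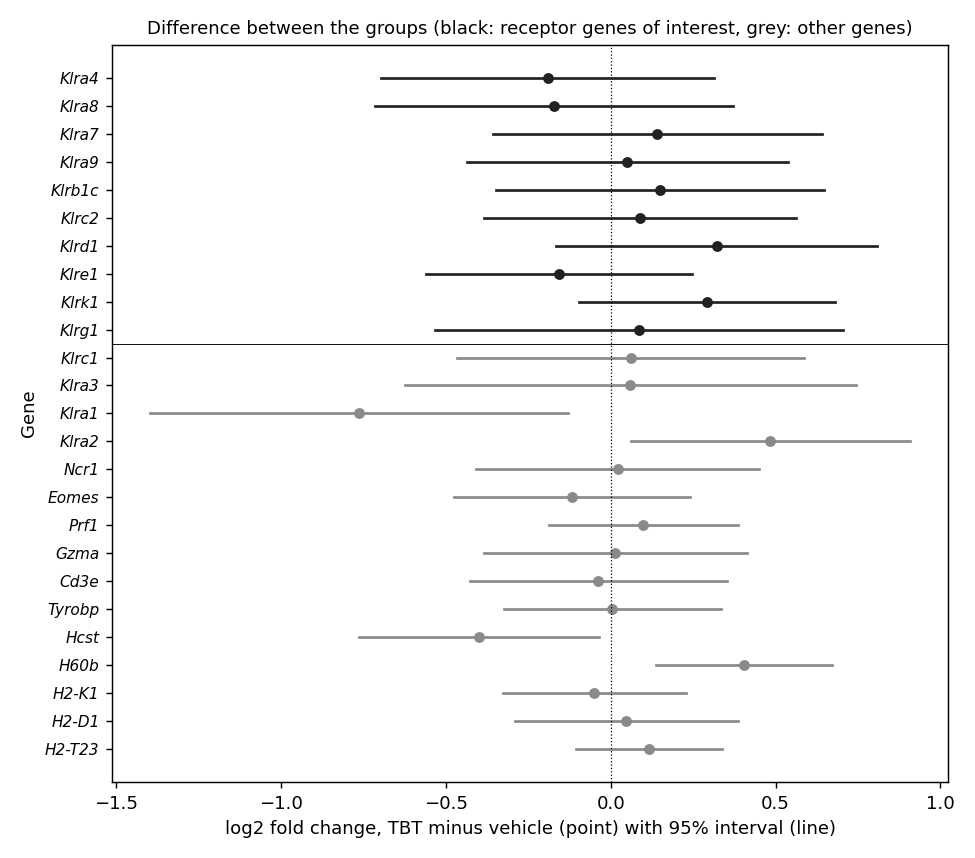
log2 fold change of TBT over vehicle (point) with its 95% interval (line) from edgeR for the 10 receptor genes (black) and for related genes (grey). The intervals of all 10 receptor genes include 0, from -0.19 for Klra4 to 0.32 for Klrd1, and those of Klra1, Klra2, Hcst and H60b do not, although none of these passed the adjustment over all genes.

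Levels of different genes were set side by side per kilobase of exon. Klrd1 was the most abundant of the 10 at 12.5 ± 4.15 CPM per kb over all 15 libraries, above the next gene, Klra8 (4.12 ± 1.64 CPM per kb), in 15 of 15 libraries. Klrk1 (3.21), Klra4 (2.83), Klra7 (2.20), Klra9 (2.07), Klre1 (2.04), Klrb1c (1.80), Klrg1 (1.35) and Klrc2 (1.08 CPM per kb) followed. Below Klrd1, no gene differed from the next in this order by more than the SD of their difference across libraries. The order depends on the length used: Klrk1, Klre1 and Klrc2 have long annotated exons, and per kilobase of the longest coding transcript Klrd1 was followed by Klrk1 (7.21 CPM per kb), Klre1 (5.52) and Klra8 (4.12).

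Near-identical copies, and for Klrb1c an overlapping gene model, limit how well reads are placed. Of the 50-base stretches in the longest coding transcript, 33.1% in Klra8, 32.4% in Klra9, 30.1% in Klrc2, 18.1% in Klrb1c, 14.7% in Klra7 and 4.68% in Klra4 also occurred in a transcript of another gene. The main partners were Klra14-ps for Klra8, Klra3 for Klra9, Klrc1 for Klrc2 and Gm44511 for Klrb1c. Gm44511 overlaps Klrb1c on the same strand, over 413 exon bases. That part of the Klrb1c share is therefore the same bases under both gene names, not a copy elsewhere. At 100 bases the shares were 14.4%, 4.41%, 12.8%, 12.6%, 2.29% and 0%. Klrd1, Klre1, Klrk1 and Klrg1 shared 0% at either length. Reads from the shared stretches may have been left out or split between copies, so the levels of Klra7, Klra8, Klra9, Klrc2 and Klrb1c are less certain than those of the other genes.

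The receptor transcripts tended to be high or low together in an animal. TBT 5 and vehicle 4 had the highest mean rank (12.7 of 15 each), with 6 of the 10 genes among the 3 highest libraries in each. Vehicle 6 had the lowest mean rank (2.30), with 9 of the 10 genes among the 3 lowest libraries. Vehicle 7 had 7 genes among the 3 lowest, and TBT 8 had 4. The summed level of the 10 genes ran from 53.6 (TBT 8) over 75.5 to 102.6 CPM (TBT 5) in TBT and from 40.9 (vehicle 6) over 64.4 to 98.5 CPM (vehicle 4) in vehicle, so the difference between animals of a group was larger than that between the groups. Without TBT 2, TBT 8 and vehicle 6 the means were 83.2 ± 13.9 CPM in TBT (n = 6) and 74.3 ± 17.9 CPM in vehicle (n = 6).

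**Figure D3:**
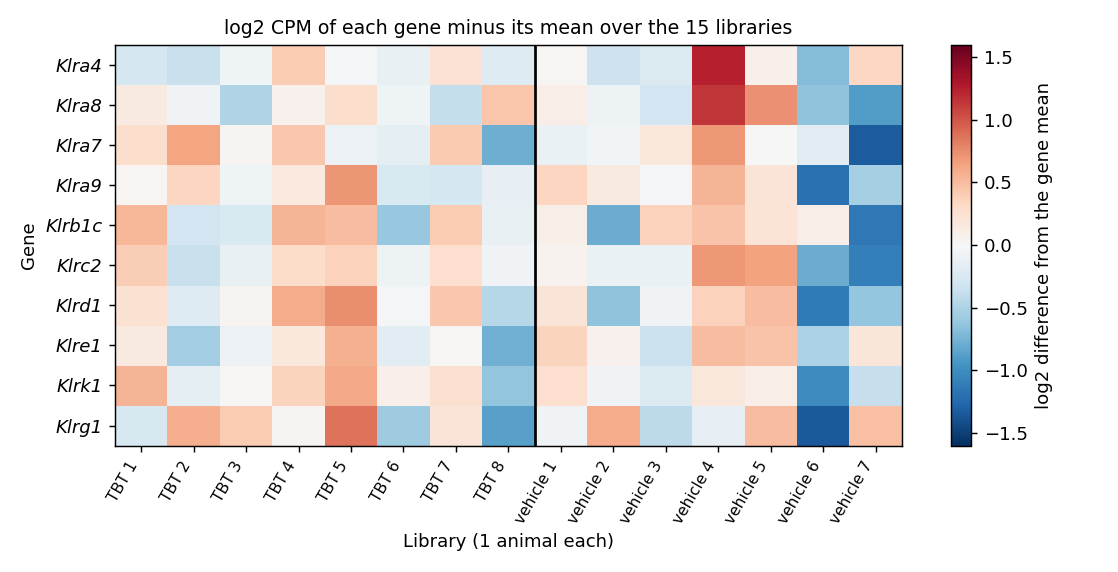
log2 CPM of each receptor gene (rows) in each of the 15 libraries (columns), minus the mean of that gene over all libraries, with red above and blue below the mean. TBT 5 and vehicle 4 are red in most genes, vehicle 6 is blue in nearly all, and both groups hold high and low animals.

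Over the 15 libraries, with each group centred on its own mean, 44 of the 45 pairs of receptor genes had a positive Pearson correlation, with a median r of 0.498 (median Spearman rho 0.493), and a median r of 0.570 without TBT 2, TBT 8 and vehicle 6. These correlations are descriptions over libraries that share their scaling and depth. The closest pair was Klre1 and Klrk1 (r = 0.890, rho = 0.900, and r = 0.812 without the 2 libraries farthest from the median), followed by Klrd1 and Klrk1 (r = 0.865, rho = 0.821, and r = 0.769). Klra8 went with Klrc2 (r = 0.837, rho = 0.764, and r = 0.692). Klra4 had r = 0.498 with Klra8 and r = -0.200 without the 2 farthest libraries, so that relation rests on them. Klrg1 and Klrb1c made the 1 negative pair over all 15 libraries (r = -0.176). Without TBT 2, TBT 8 and vehicle 6, Klrg1 had r = -0.332 with Klra7, -0.184 with Klrb1c and -0.0844 with Klra8. It had -0.0753 with Klrc2, -0.0572 with Klra4, 0.226 with Klra9 and 0.505 with Klre1. With Klrk1 it fell from 0.566 to 0.0858 and with Klrd1 from 0.438 to 0.0295.

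The levels were also set against the summed markers of 10 blood cell types in the same libraries. The 8 NK cell markers were Ncr1, Eomes, Prf1, Gzma, Nkg7, Il2rb, Txk and S1pr5. Across the 10 receptor genes, r with their sum ran from 0.463 for Klrg1 to 0.951 for Klrd1, with a median of 0.667. The markers did not all behave alike. Taken singly, S1pr5 had a mean r of -0.0562 with the receptor genes, and the others had 0.530 (Eomes) to 0.678 (Gzma). The sum gives most weight to Il2rb, at 21.6 (vehicle 6) to 41.8 CPM (TBT 5). The median r was 0.528 with T cell markers, 0.508 with the CD8 T cell markers Cd8a and Cd8b1, 0.433 with Cd4, 0.373 with B cell markers and 0.224 with neutrophil markers, where Klrd1 reached 0.545. It was -0.0777 with monocyte, -0.183 with erythroid, -0.232 with platelet and -0.350 with basophil and mast cell markers. Klrk1 had r = 0.922 with the CD8 T cell markers and 0.877 with the NK cell markers, whereas Klra8 had r = 0.239 and 0.509 and Klra4 r = 0.397 and 0.611. The difference between these correlations was not tested. The summed NK cell markers stood at 98.8 (TBT 8) to 162 CPM (TBT 5) in TBT and 83.1 (vehicle 6) to 159 CPM (vehicle 4) in vehicle, the same animals as at the ends of the receptor sum. All 8 NK cell markers were read in both groups, 7 of 8 had a positive log2 fold change, and their median was 0.03, close to the 0.05 of all tested genes. The part of cell number in the receptor levels was not tested.

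**Figure D4:**
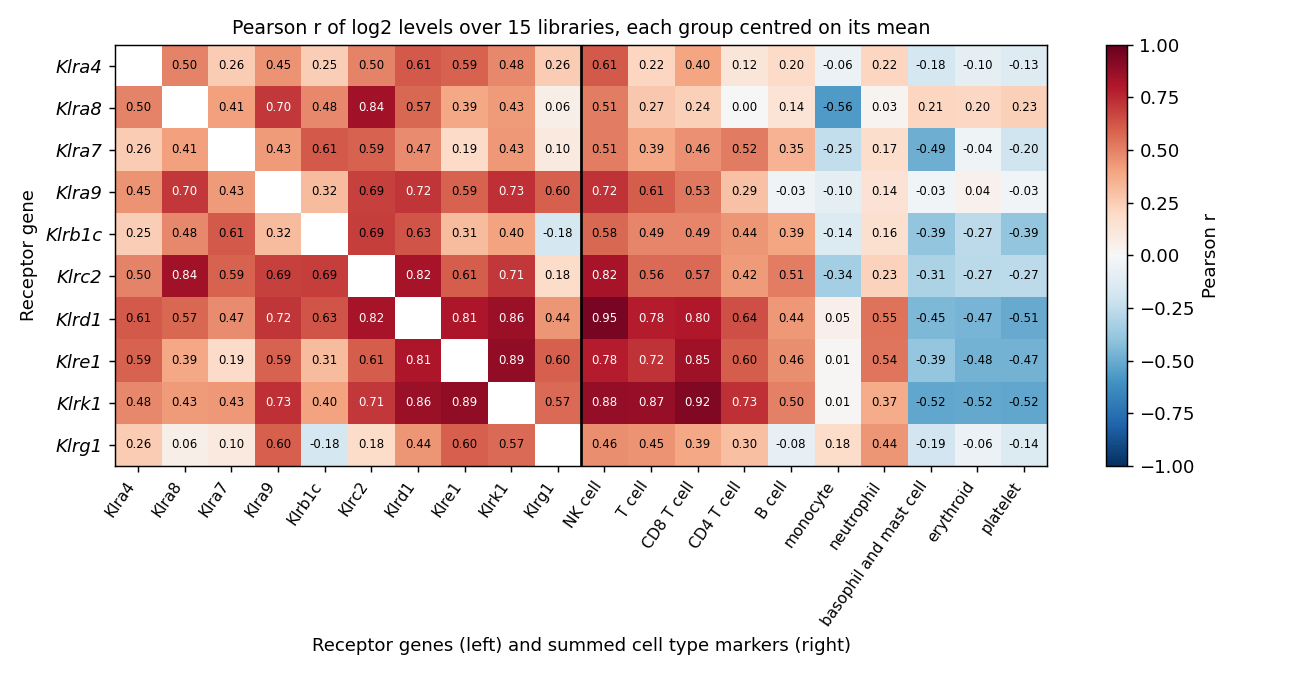
Pearson r of log2 levels over the 15 libraries, with each group centred on its mean, between each receptor gene (rows) and the other receptor genes (left) or the summed markers of a cell type (right). Red is positive and blue negative, and Klrd1, Klre1 and Klrk1 go together (r from 0.810 to 0.890), while monocyte, erythroid and platelet markers stand near or below 0 in most rows.

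The tested genes whose pattern was most like that of the 10, by mean r with them, were Ice2 (0.682), Samd3 (0.678), the granzyme gene Gzma (0.678), the NK receptor gene Ncr1 (0.658) and Thoc2 (0.650). The median over 13354 genes was 0.0369. Ncr1, which marks NK cells and is not a lectin-like receptor, was at 12.7 ± 2.96 CPM in TBT and 12.5 ± 4.75 CPM in vehicle (log2 fold change 0.02, edgeR adjusted p = 0.997). Set against Ncr1 in the same library, Klrk1 stood at 2.02 ± 0.429 counts per Ncr1 count in TBT (n = 8) and 1.74 ± 0.458 in vehicle (n = 7), Klrd1 at 1.39 ± 0.181 and 1.15 ± 0.281, and Klre1 at 0.532 ± 0.0897 and 0.651 ± 0.215. Klra8 stood at 0.383 ± 0.119 and 0.391 ± 0.0610, and Klra4 at 0.264 ± 0.0396 and 0.316 ± 0.136. Against Cd8a, Klrk1 stood at 1.15 ± 0.103 in TBT and 0.976 ± 0.153 in vehicle. The ranges of these ratios overlapped between the groups.

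The other killer lectin-like receptor genes gave no call either. Of 16 listed, 15 were in the table and 10 were tested, 8 positive and 2 negative, with a median log2 fold change of 0.13. In edgeR 2 had an unadjusted p under 0.05 and 0 passed the adjusted threshold. Beside this list and those below, 59.4% of all tested genes were positive and 6.33% had an unadjusted p under 0.05. The smallest p belonged to Klra1, which encodes the inhibitory Ly49A. It was at 0.833 ± 0.269 CPM in TBT and 1.41 ± 0.562 CPM in vehicle, with 0 of 8 TBT libraries above the vehicle median (log2 fold change -0.76, edgeR unadjusted p = 0.0209, adjusted p = 0.731). Klra2, whose product Ly49B is known from myeloid cells, was at 37.2 ± 11.99 against 26.7 ± 7.41 CPM (log2 fold change 0.48, edgeR adjusted p = 0.731). All 6 monocyte markers had a positive log2 fold change, with summed levels of 325 to 701 CPM in TBT and 268 to 582 CPM in vehicle, highest in TBT 3 and vehicle 3, where Klra2 was highest too. Their part in the Klra2 values was not tested. Klrc1 and Klra3, which encodes Ly49C, each differed by 0.06.

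Among the genes of ligands, 9 of 13 were tested, 6 of them positive, with a median log2 fold change of 0.09, 2 at an unadjusted p under 0.05 and 0 past the threshold. H60b, which encodes a ligand of NKG2D, was at 15.9 ± 3.02 CPM in TBT and 12.1 ± 1.56 CPM in vehicle, with 7 of 8 TBT libraries above the vehicle median (log2 fold change 0.41, edgeR unadjusted p = 0.00497, adjusted p = 0.676). Clec2g, from the family of ligands of the Klrb1 receptors, was at 10.6 ± 1.89 and 8.24 ± 1.34 CPM (log2 fold change 0.37, edgeR adjusted p = 0.725). The MHC class I genes H2-K1, H2-D1 and H2-T23 had log2 fold changes of -0.05, 0.05 and 0.12 (edgeR adjusted p from 0.945 to 0.991).

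Of 15 tested genes of adaptors and proximal signalling, 6 were positive and 9 negative, with a median of -0.04, 3 at an unadjusted p under 0.05 and 0 past the threshold. Hcst, which encodes the NKG2D adaptor DAP10, was at 3.18 ± 0.660 CPM in TBT and 4.21 ± 0.834 CPM in vehicle, with 0 of 8 TBT libraries above the vehicle median (log2 fold change -0.40, edgeR unadjusted p = 0.0338, adjusted p = 0.736), while Klrk1 itself had a positive log2 fold change. Lat2, an adaptor of myeloid and B cells, had a log2 fold change of -0.40 (edgeR adjusted p = 0.725), and Tyrobp one of 0.0049 (edgeR adjusted p = 0.999). All 6 B cell markers had a negative log2 fold change, with summed levels of 517 to 1260 CPM in TBT and 756 to 1110 CPM in vehicle, and their part in the Lat2 values was not tested. The third gene under 0.05, named after its value was seen, was Sh2d1b1, which encodes the adaptor EAT-2, at 7.24 ± 3.14 CPM in TBT and 4.93 ± 1.64 CPM in vehicle (log2 fold change 0.55, edgeR unadjusted p = 0.0461, adjusted p = 0.777). Sh2d1b1 was highest in TBT 3 (13.3 CPM) and vehicle 3 (8.19 CPM), where the monocyte markers were highest too. Its mean r with the 10 receptor genes was -0.0252, and the part of monocytes in its values was not tested. Of the 3 inhibitory phosphatase genes 0 passed, with Ptpn6 (SHP-1) at -0.24 and Inpp5d (SHIP-1) at 0.01.

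Of 16 tested other NK cell receptor genes 13 were positive (median 0.11), where 59.4% of all tested genes were, and 0 passed. They were led by the interleukin-12 receptor gene Il12rb2 (log2 fold change 0.50, edgeR adjusted p = 0.810) and the co-receptor gene Cd244a (0.43, edgeR adjusted p = 0.731). Cd244a was highest in TBT 3 and vehicle 3, as were the monocyte markers, whose part was not tested. The list is mixed: mean r with the 10 receptor genes ran from -0.244 (Itga2) and -0.236 (Cd226) to 0.658 (Ncr1). Of 10 NK transcription factor genes 5 were positive (median 0.02), with Ikzf2 at 0.42, Zeb2 at 0.18 and Eomes, a T-box factor of NK cells, at -0.12 (edgeR adjusted p from 0.827 to 0.975). Of 10 tested cytotoxic effector genes 5 were positive (median -0.02), with Ccl4 at -0.54, Gzmb at 0.26, the perforin gene Prf1 at 0.10 and Gzma at 0.01 (edgeR adjusted p from 0.885 to 0.997). The T cell gene Cd3e had a log2 fold change of -0.04 (edgeR adjusted p = 0.994). In these last 3 lists 1, 0 and 0 genes had an unadjusted p under 0.05, and 0 passed the adjusted threshold.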

How the data were processed

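Per the labels' protocols, blood RNA was isolated with RNeasy columns and made into Illumina TruSeq Stranded Total RNA libraries. Per the submitters' processing notes, Trim Galore, HISAT2, the build mm10 and featureCounts were used, while for versions, annotation release, read length and strand option the entry is "not given in the sources used here". Values in the table that the authors deposited are whole-number counts per gene. Columns were matched to animals by sample description. Here edgeR 4.0.16 (R 4.3.3) was run on all counts with filterByExpr, TMM, robust quasi-likelihood fits without covariates and Benjamini-Hochberg adjustment over 13364 genes at 0.05, and checked on simulated data. The common biological coefficient of variation was 0.290. DESeq2 1.42.0, limma 3.58.1, other scalings and filters, a replicate block and left-out libraries were alternatives. Standard errors came from the quasi-likelihood F statistic, and counting intervals are exact Poisson intervals at 95% that cover counting error only. Correlations used log2 CPM (prior count 2).

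The receptor genes, marker and pathway lists were chosen with earlier results of these data known. Beside the 10 receptor genes, the rule named the 2 genes with the smallest p of each pathway list, the 12 genes Ncr1, Eomes, Prf1, Gzma, Tyrobp, Hcst, H2-K1, H2-D1, H2-T23, Klrc1, Klra3 and Cd3e, and the 5 genes most like the receptors in pattern. Replicate numbers are shared between the groups but the labels tie them to no litter or day. No pair of libraries in a group agreed within counting noise (lowest chi-square 9.71 per gene).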

Additional observations from a re-analysis of the deposited data

Results flagged for a closer look

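In a group of 7 or 8 animals, a library was singled out when its gap to the nearest other library exceeded Dixon's 95% critical value as a share of the range. Over 98 such groups of named genes and ratios, 9 values were singled out, where chance gives about 1 in 20 groups, or 4.90. Klra4 in vehicle 4 was at 7.96 CPM against 2.08 to 4.20 CPM in the other vehicle libraries. Klrc1 in vehicle 6 was at 2.36 CPM against 5.55 to 7.81 CPM, on 17 counts. H2-K1 in vehicle 3, whose label names a liver tumor, was at 284 CPM against 200 to 218 CPM. Cd244a in the same animal was at 39.2 CPM against 24.2 to 29.6 CPM. Vehicle 3 also had the highest summed monocyte markers of the vehicle libraries (582 CPM). In TBT, Cd244a was highest in TBT 3 (58.7 CPM), where monocyte markers were highest too (701 CPM), and H2-K1 in TBT 5 (246 CPM). The part of the tumor or of monocytes in these values was not tested. Lat2 in TBT 2 was at 4.96 CPM against 8.77 to 11.4 CPM, on 17 counts. Il12rb2 in TBT 8 was at 1.54 CPM against 3.50 to 4.51 CPM, on 8 counts. The ratio of Klra7 to Klra9 counts in vehicle 6 was 2.12 against 0.600 to 1.19, on only 17 and 8 counts. The ratio of Klrd1 to Ncr1 counts in TBT 8 was 1.00 against 1.32 to 1.55, and that of Klre1 to Ncr1 counts in vehicle 7 was 1.10 against 0.491 to 0.752.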

How the results depend on the processing

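Under all 24 alternatives 0 of 10 receptor genes passed the adjusted threshold, and the lowest adjusted p was 0.172. At an unadjusted p under 0.05 at most 2 appeared, in 5 of the 24, with the shares of all tested genes given with the main counts. Klra7, Klrb1c, Klrd1, Klre1 and Klrk1 kept the sign of the fitted log2 fold change in all 24. The number of positive receptor genes ran from 4 (without vehicle replicate 6) to 9 (without vehicle replicate 4), and it was 5 without TBT 2, TBT 8 and vehicle 6 together. Over all genes, 2 were called with no filter, 13 by DESeq2, 19 by limma-voom with sample quality weights and 7 without TBT 2, TBT 8 and vehicle 6. With the replicate block 1 gene was called, Klrk1 stood at 0.40 and Klrd1 at 0.44. Of the same-numbered animals, TBT 3 and vehicle 3 deviated together (r of deviations 0.506). The value was 0.148 for number 5 and -0.235 to 0.0383 for the rest, so r was above 0.1 in 2 of 7 pairs. The numbers were not taken as pairs in the main fit, and whether they mark a litter or a day was not tested. The mean CPM of each receptor gene moved by less than 1 SD with other scalings, but on CPM of all counts the group means of Klre1 changed order (7.84 in TBT, 7.66 in vehicle) and those of Klra4 drew level (3.73 in both).

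The log2 fold change of some named genes changed sign, none past the threshold, and the cause was not tested. With upper-quartile normalization stood Inpp5d at -0.020, Ncr1 at -0.00092, Gzma at -0.0076 and Tyrobp at -0.023. With haemoglobin genes left out stood Inpp5d at -0.0061, Gzma at -0.0048 and Tyrobp at -0.013. In limma-voom with sample quality weights stood Klra4 at 0.021, Inpp5d at -0.043, Zeb2 at -0.025, H2-K1 at 0.039 and Cd3e at 0.10. With the replicate block stood Inpp5d at -0.010, H2-D1 at -0.0020 and Cd3e at 0.056. Without TBT 2, TBT 8 and vehicle 6 stood Klra9 at -0.084, Klrg1 at -0.0075, Inpp5d at -0.050, Zeb2 at -0.066, H2-K1 at 0.0024, H2-D1 at -0.085 and Cd3e at 0.029. With each animal left out in turn the ranges were -0.035 to 0.041 for Inpp5d, -0.010 to 0.084 for H2-D1, -0.12 to 0.071 for Cd3e, -0.10 to 0.073 for Tyrobp, -0.072 to 0.16 for Ncr1, -0.082 to 0.16 for Gzma, -0.14 to 0.14 for Klrc1, -0.10 to 0.25 for Klra3, -0.087 to 0.15 for Klra9, -0.083 to 0.20 for Klrg1, -0.10 to 0.00093 for H2-K1, -0.29 to 0.094 for Klra4, -0.28 to 0.072 for Klra8 and -0.024 to 0.23 for Klrc2. Depth limits Klrg1 most, whose median of 18 counts gives a counting error of 23.6% against a spread of 37.7% between animals, while for Klrk1 these were 6.03% and 27.0%.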

Other observations

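Klra13-ps and Klra14-ps, annotated pseudogenes of the Klra family, were read at levels like those of the receptor genes. Klra13-ps averaged 8.16 ± 2.18 CPM over the 8 TBT animals and 8.95 ± 2.12 CPM over the 7 vehicle animals (SD), on 19 to 163 counts per library, above the mean CPM of each of the 4 Klra receptor genes described. Klra14-ps stood at 2.88 ± 0.942 and 3.23 ± 0.890 CPM. Klra11-ps had at most 3 counts in any library. Klra14-ps was the gene with which Klra8 shared most 50-base stretches, and Klra13-ps the only one with which Klra7 shared any.

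Vehicle 3, whose label names a liver tumor, lay inside the range of the other 6 vehicle animals for 10 of the 10 receptor genes. Its Klrk1 level was 19.1 CPM, where the others ran from 11.1 to 26.7 CPM, and its Klrd1 level was 14.5 CPM, where they ran from 6.93 to 21.3 CPM. The share of all tested genes inside such a range was not counted, so 10 of 10 is not given as a trait of the receptor genes. With 1 such animal, a link to the tumor was not tested.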
